A study of Mus musculus with 6 samples.

Results

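Mitochondrial ribosomal proteins are the protein part of the ribosome that works inside mitochondria, and their nuclear genes carry the symbols Mrps (small subunit) and Mrpl (large subunit). The genes described here are the rows of the count table whose symbol is Mrps or Mrpl followed by a number and at most 1 letter, 78 of 54433 genes, with 29 Mrps and 49 Mrpl symbols. All 78 passed the filter on low counts and were tested. RNA sequencing covered 6 libraries of MC3T3-E1, a mouse line of osteoblast-like cells widely used as a model of bone formation. The 3 WT libraries came from wild-type cells kept in Dulbecco's modified Eagle medium. The 3 FR libraries came from cells of the same line adapted to fluoride, first with a 10 ppm gradient and finally resistant to 30 ppm, and labelled as exposed to a 30 ppm gradient. All 6 libraries share the line, the serum and the antibiotics. The series title names mice, whereas the sample labels name the cell line, and the labels are followed here. Resistance and exposure to fluoride cannot be told apart in this design. Whether the 3 libraries of a group are separate cultures is not stated, and the p-values reflect the spread among these libraries alone, which may be technical.

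The mitochondrial ribosome translates the few messages encoded by mitochondrial DNA, all of them for core subunits of the respiratory chain and the ATP synthase. Its ribosomal RNAs come from mitochondrial DNA, whereas every one of its proteins is made in the cytosol and imported. Compared with its bacterial ancestor it has less RNA and more protein, so that part of its proteins belong to families shared with bacteria and part are found only in mitochondria. Osteoblasts draw on both glycolysis and mitochondrial respiration while they mature and lay down matrix.

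Libraries held 19246119 to 27140662 expected counts, and 3 counts corresponded to 0.110 to 0.156 CPM, the unit of counts scaled to a common library total. The members lay between 5.13 and 113.5 CPM in single libraries, so none was limited by detection. Of 10 osteoblast markers, 6 passed the filter (Col1a1, Col1a2, Spp1, Dmp1, Cdh11 and Runx2) and all 6 were lower in FR. The summed osteoblast markers were at 16050 to 16358 CPM in WT and 4170 to 4217 CPM in FR, while Ibsp was at 0 in all libraries and Sp7, Alpl and Bglap did not pass the filter. Summed macrophage markers were at 6.56 to 7.99 CPM in WT and 10.3 to 12.2 in FR, muscle markers at 1.87 to 2.10 and 6.38 to 7.15 with Myod1 at 0, and chondrocyte markers at 70.7 to 73.4 and 48.0 to 51.0 with Acan and Col9a1 at 0. Few of these passed the filter: 3 of 5 for macrophages (2 higher, 1 lower) and 2 of 5 for chondrocytes (2 lower). For muscle it was 1 of 5 (Des, higher). The sums for adipocytes, endothelium and epithelium stayed under 4 CPM in every library. The part of these shifts in the values below was not tested, and in bulk RNA fewer cells of a type and less RNA per cell cannot be told apart.

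Genes for mitochondrial ribosomal proteins moved in both directions and by modest amounts in FR. Of the 78 members, 30 rose, 18 fell and 30 did not pass the test (edgeR's quasi-likelihood test, Benjamini-Hochberg adjusted p under 0.05 over 14889 genes). That is 61.5% called, beside 70.1% of all genes tested. The median log2 fold change of FR over WT was 0.05 for the members and 0.00 for all genes. Sizes were small, with 52 members within 1.2-fold in either direction. Called changes of at least 1.5-fold numbered 5 of 78, against 30.4% of all genes, and none reached 2-fold, against 18.8% of all genes. The largest fall, of Mrpl24, lay just short of 2-fold at a log2 fold change of -0.998 ± 0.06 (SE), and 19.2% of all genes tested had a larger absolute change. The libraries of FR and WT did not overlap for 46 members (59.0%), against 72.4% of all genes.

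**Figure D1:**
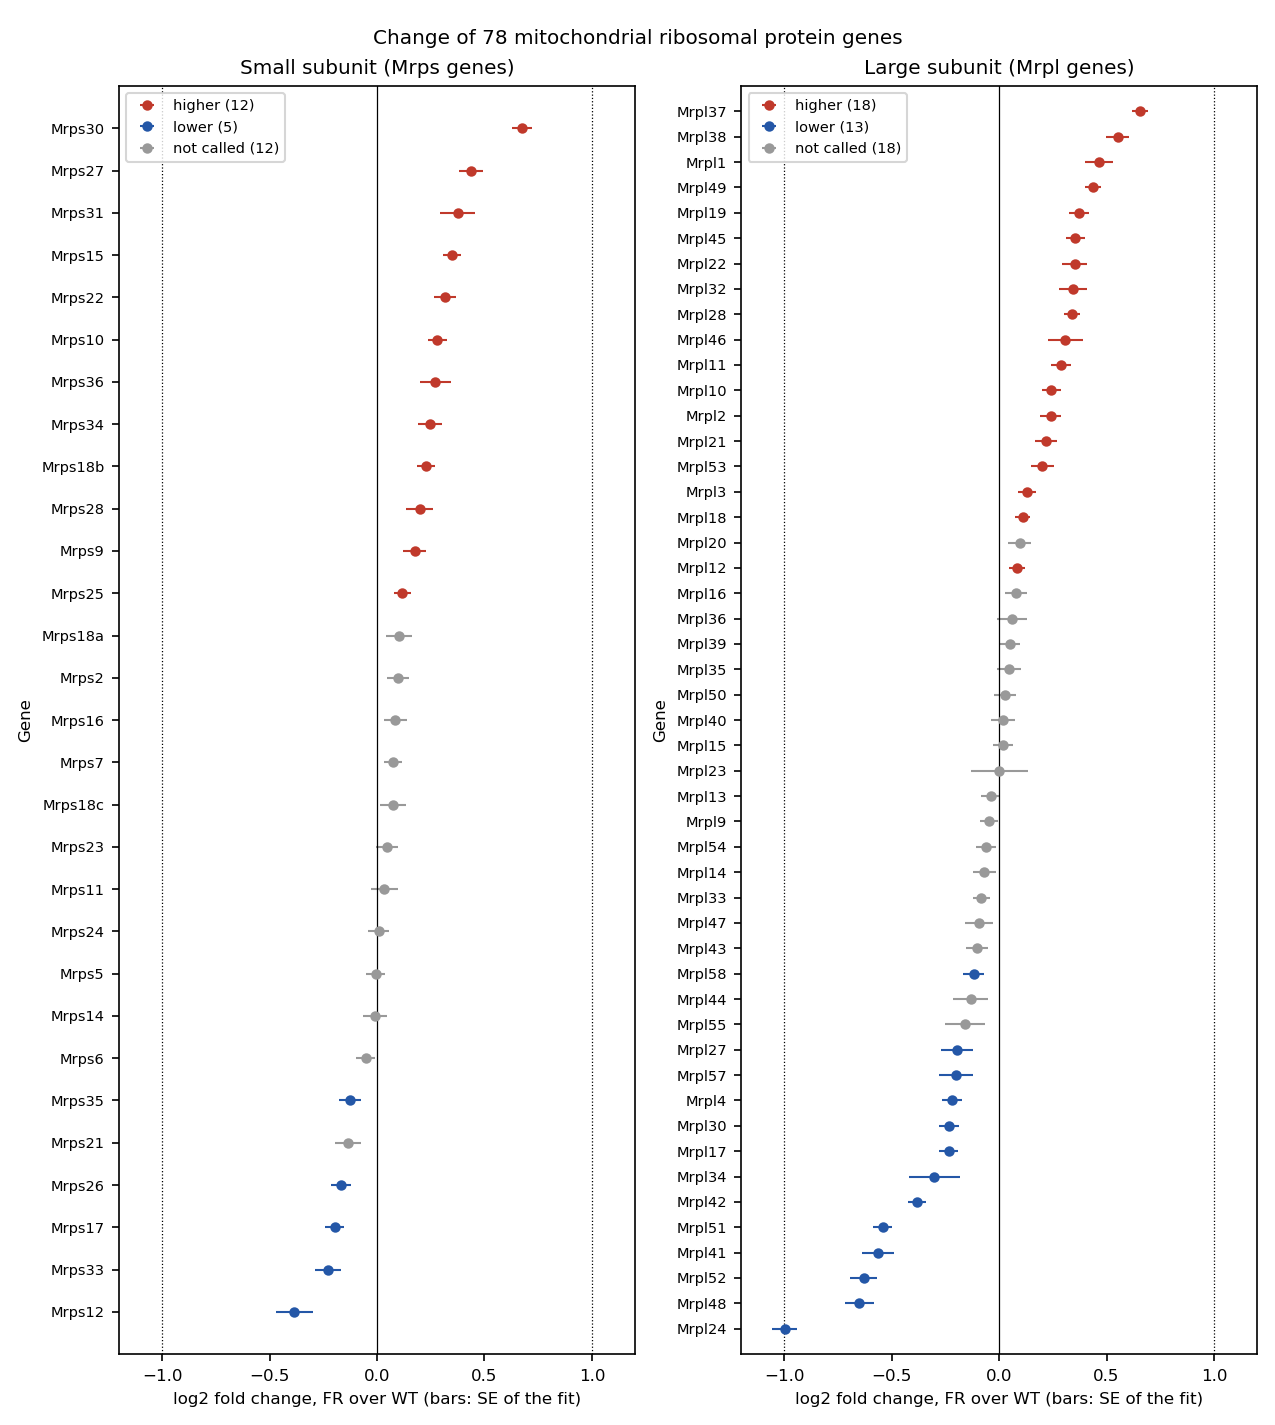
Log2 fold change (FR over WT) with its standard error, for the 29 Mrps genes (left) and 49 Mrpl genes (right), ordered by size. Red marks 12 and 18 genes that rose, blue 5 and 13 that fell and grey those not called. Dotted lines at 1 and -1 mark a 2-fold change, which only the estimate of Mrpl24 approaches.

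Promoter sequences of 5 members are shown to set the genes at both ends of the range beside 2 whose printed promoters hold known motifs. Mrps30 and Mrpl37 had the largest rises among the Mrps and the Mrpl genes, Mrpl24 and Mrpl52 were among the falls, and Mrpl22 rose. Sequences are from RefSeq on GRCm38.p6, another build than the GRCm39 of the counts, and each runs from 250 bases before the annotated start to 30 bases after it, 5′ to 3′ on the gene's strand. Capitals mark matches to CCGGAAG (the core bound by ETS factors such as GABP), GCGCATGC (nuclear respiratory factor 1) or AAGATGG (YY1), searched on both strands. The positions are chr13:118387223-118387502 (minus strand) for Mrps30, chr4:107066837-107067116 (minus strand) for Mrpl37, chr3:87919294-87919573 (plus strand) for Mrpl24, chr14:54426659-54426938 (plus strand) for Mrpl52 and chr11:58171414-58171693 (plus strand) for Mrpl22.
Mrps30: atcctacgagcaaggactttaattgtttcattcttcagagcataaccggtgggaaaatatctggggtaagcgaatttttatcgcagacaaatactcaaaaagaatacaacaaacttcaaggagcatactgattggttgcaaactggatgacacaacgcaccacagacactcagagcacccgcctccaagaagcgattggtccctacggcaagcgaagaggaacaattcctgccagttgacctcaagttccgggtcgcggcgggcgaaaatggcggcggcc
Mrpl37: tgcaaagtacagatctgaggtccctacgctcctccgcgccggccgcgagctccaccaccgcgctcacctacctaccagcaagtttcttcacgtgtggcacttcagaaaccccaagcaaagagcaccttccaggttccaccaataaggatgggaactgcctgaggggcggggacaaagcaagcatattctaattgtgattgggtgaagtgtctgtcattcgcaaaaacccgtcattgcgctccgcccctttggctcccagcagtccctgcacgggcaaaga
Mrpl24: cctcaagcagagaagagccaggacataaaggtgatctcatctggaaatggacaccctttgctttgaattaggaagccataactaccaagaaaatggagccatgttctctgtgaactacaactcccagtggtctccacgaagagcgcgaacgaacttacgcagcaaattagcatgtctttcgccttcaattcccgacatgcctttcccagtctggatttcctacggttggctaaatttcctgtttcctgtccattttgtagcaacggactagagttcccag
Mrpl52: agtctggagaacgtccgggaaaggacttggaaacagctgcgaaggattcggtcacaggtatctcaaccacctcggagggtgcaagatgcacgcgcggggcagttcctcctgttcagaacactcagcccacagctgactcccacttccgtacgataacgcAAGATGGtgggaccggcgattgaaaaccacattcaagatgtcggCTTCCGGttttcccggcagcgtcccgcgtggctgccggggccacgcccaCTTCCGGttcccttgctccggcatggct
Mrpl22: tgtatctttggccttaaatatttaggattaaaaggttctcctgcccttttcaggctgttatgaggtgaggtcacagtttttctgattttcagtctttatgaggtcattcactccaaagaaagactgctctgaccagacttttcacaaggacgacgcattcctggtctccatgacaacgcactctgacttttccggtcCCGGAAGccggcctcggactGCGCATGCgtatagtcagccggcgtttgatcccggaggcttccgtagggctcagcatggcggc
In Mrpl52, the ETS letters lay on the opposite strand 47 bases before the start and at base 3 after it, and AAGATGG lay 91 bases before it. In Mrpl22, CCGGAAG began 53 bases and GCGCATGC 33 bases before the start. The printed stretches of Mrps30, Mrpl37 and Mrpl24 held none of the 3 strings, although AAGATGG begins at base 27 after the start of Mrpl37, across the end of the printed part.

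These 3 strings are textbook elements of nuclear genes for mitochondrial proteins. Over 250 bases before to 50 after the start, CCGGAAG was present in 25 of 69 member promoters (36.2%), beside 18.4% of 10272 promoters of tested genes and 8.86% of all 32851 promoters. GCGCATGC was present in 8 members (11.6%), beside 5.40% of tested genes and 2.71% of all promoters. AAGATGG was present in 13 members (18.8%), beside 7.45% and 6.34%. At least 1 of the 3 was in 37 members (53.6%), beside 28.3% of tested genes. By direction, CCGGAAG was in 8 of the 26 searched members that rose, 10 of the 16 that fell and 7 of the 27 not called. GCGCATGC was in 4, 1 and 3 of these, and AAGATGG in 4, 3 and 6, with no test made between the directions. A match is a description of letters, not of a bound site. Mrpl4, Mrpl13, Mrpl15, Mrpl19, Mrpl38, Mrpl54, Mrps28, Mrps34 and Mrps35 had no promoter in the table.

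In the small subunit, 12 of 29 Mrps genes rose and 5 fell, with 12 not called. These are 41.4% and 17.2%, beside 34.6% of all genes that rose and 35.5% that fell. The median log2 fold change was 0.08, with quartiles of -0.01 and 0.25, and single members ran from -0.39 to 0.67. The groups did not overlap for 17 members (58.6%), the same 12 rises and 5 falls, beside 72.4% of all genes. Summed over the 29 genes, the level was 1131, 1163 and 1145 CPM in WT and 1206, 1233 and 1245 CPM in FR, a mean difference of 7.14%. Each FR sum lay above each WT sum.

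Mrps30 had the largest rise of all 78 members. Despite its symbol, its protein sits in the large subunit, where it is also called mL65. Its level was 33.0, 33.1 and 34.1 CPM in WT and 54.5, 51.6 and 53.9 CPM in FR. The WT libraries lay within about 1 CPM of each other and far below every FR library. The log2 fold change was 0.67 ± 0.05 (edgeR, adjusted p = 1.95e-13). Mrps27, a pentatricopeptide repeat protein of the small subunit, stood at 25.2, 26.6 and 24.97 CPM in WT and 33.5, 35.3 and 34.9 CPM in FR. It rose by 0.44 ± 0.05 on the log2 scale (edgeR, adjusted p = 5.00e-08), again without overlap. Mrps31, a mitochondria-specific protein of the small subunit, was measured at 16.1, 13.3 and 14.5 CPM in WT and 19.1, 17.8 and 20.3 CPM in FR. Its WT libraries were more spread, yet the highest of them stayed below the lowest FR library, and the log2 fold change was 0.38 ± 0.08 (edgeR, adjusted p = 0.000187). Mrps15, whose bacterial relative binds the small ribosomal RNA early in assembly, was at 61.6, 66.0 and 58.6 CPM in WT and at 77.0, 79.1 and 80.8 CPM in FR, with a log2 fold change of 0.35 ± 0.04 (edgeR, adjusted p = 2.07e-08). The other Mrps genes that rose did so by 0.12 (Mrps25) to 0.32 (Mrps22) on the log2 scale.

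The falls in the small subunit were led by Mrps12, the counterpart of the bacterial protein that lines the decoding centre and is the site of streptomycin resistance mutations. Its level was 16.0, 15.7 and 18.0 CPM in WT and 12.05, 12.1 and 13.9 CPM in FR, with a log2 fold change of -0.39 ± 0.09 (edgeR, adjusted p = 0.000235). Its highest FR library lay below its lowest WT library. Mrps33 was at 37.7, 37.6 and 36.1 CPM in WT, while FR spread over 28.5, 31.4 and 35.0 CPM, with the third FR library close to WT (log2 fold change -0.23 ± 0.06, edgeR adjusted p = 0.00153). Mrps17, whose bacterial relative is an early-binding protein, fell from 68.7, 70.0 and 65.2 CPM to 61.8, 55.6 and 61.1 CPM (log2 fold change -0.20 ± 0.04, edgeR adjusted p = 0.000246). Mrps26, a mitochondria-specific protein, was lower by a log2 fold change of -0.17 ± 0.05 (edgeR, adjusted p = 0.00194) and Mrps35 by -0.13 ± 0.05 (edgeR, adjusted p = 0.0278). Mrps35, with 36.4, 36.2 and 37.7 CPM in WT and 33.6, 34.1 and 33.3 CPM in FR, lost its call without WT replicate 3 (adjusted p = 0.0875) or FR replicate 3 (adjusted p = 0.0615).

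Bacterial ribosomes have a single S18 protein, whereas mammals have 3 relatives of it, and the deposited annotation gives all 3 the same Pfam family. Mrps18c is held to occupy the S18 position, Mrps18b lies elsewhere in the small subunit, and the protein of Mrps18a belongs to the large subunit. Mrps18b was at 51.4, 51.7 and 52.6 CPM in WT and 63.3, 58.9 and 60.6 CPM in FR, and rose by 0.23 ± 0.04 on the log2 scale (edgeR, adjusted p = 1.92e-05). Mrps18a ranged from 31.1 to 35.7 CPM in WT and from 33.4 to 38.6 CPM in FR, with a log2 fold change of 0.10 ± 0.06 (edgeR, adjusted p = 0.126). Mrps18c was at 24.3, 24.8 and 24.0 CPM in WT and at 24.6, 25.01 and 27.2 CPM in FR, with a log2 fold change of 0.07 ± 0.06 (edgeR, adjusted p = 0.283). Only Mrps18b of the 3 was called, and the differences among the 3 changes were not tested. Mrps18a passed the threshold without FR replicate 1 (adjusted p = 0.0429).

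Mrps36 carries a subunit name, although its protein is known as a component of the 2-oxoglutarate dehydrogenase complex of the citric acid cycle. It was at 16.6, 16.4 and 16.3 CPM in WT and at 19.0, 21.0 and 19.4 CPM in FR, and rose by 0.27 ± 0.07 on the log2 scale (edgeR, adjusted p = 0.00137). With Mrps30 and Mrps18a moved to the large subunit and Mrps36 left out, the small subunit held 26 genes with 10 rises and 5 falls, and the large subunit 51 genes with 19 rises and 13 falls. These are 38.5% and 19.2%, and 37.3% and 25.5%, beside 34.6% and 35.5% of all genes. The median log2 fold changes were then 0.07 (small) and 0.03 (large), and small-subunit members ran from -0.39 to 0.44. Mrps5 and Mrps14, both members of bacterial families, had log2 fold changes of -0.01 each (edgeR, adjusted p = 0.912 and 0.885). Mrps5, the member of the small subunit nearest to 0, was at 51.8, 52.9 and 52.5 CPM in WT and 54.2, 52.7 and 49.6 CPM in FR, and the groups overlapped.

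**Figure D2:**
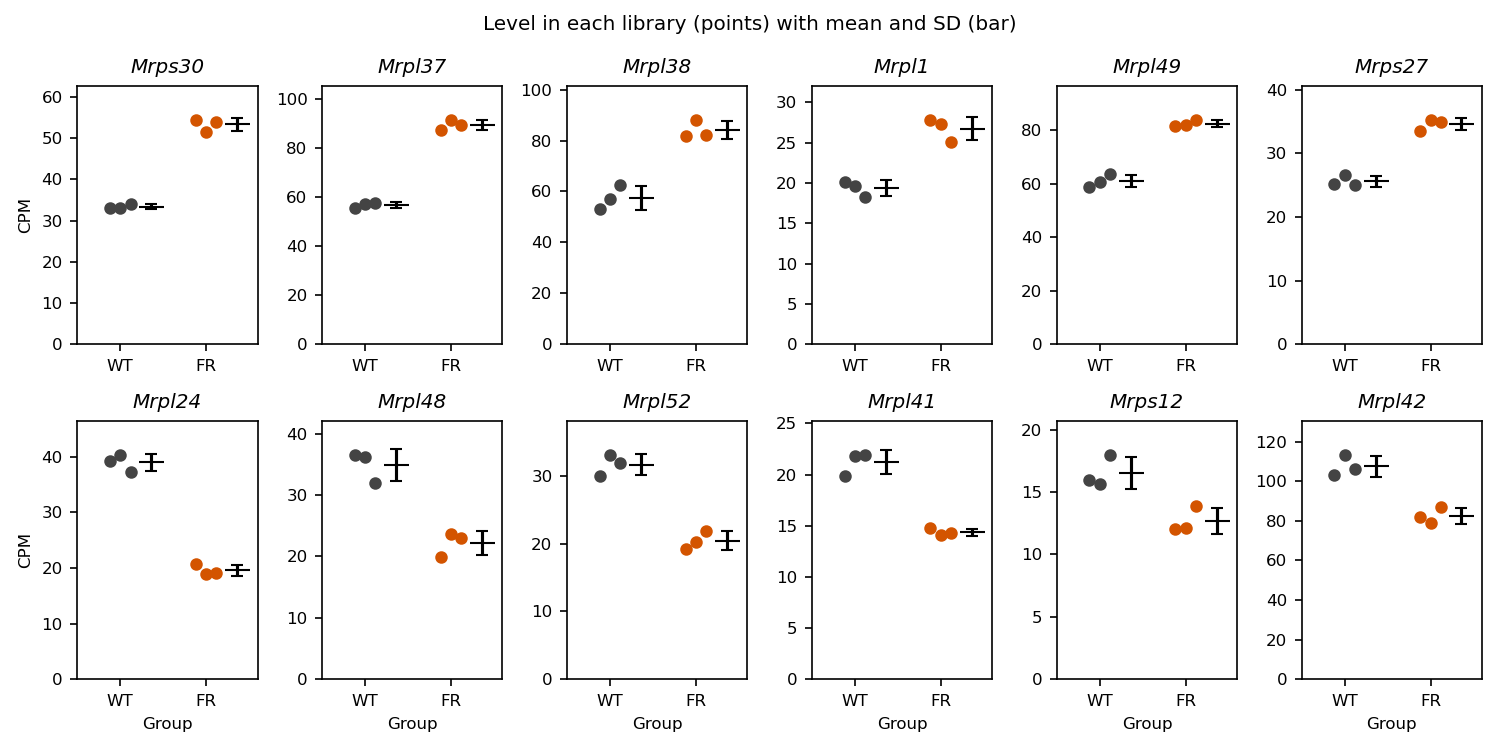
Level in CPM (axes from 0) in each of 3 WT (grey) and 3 FR (orange) libraries, with the group mean and SD as a bar, for 6 members with large rises (top) and 6 with large falls (bottom). In all 12 panels the groups are apart, and the fall of Mrpl24 from a mean of 39.0 to 19.6 CPM is the deepest.

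In the large subunit, 18 of 49 Mrpl genes rose and 13 fell, with 18 not called. These are 36.7% and 26.5%, beside 34.6% and 35.5% of all genes, so the share of rises was near that of all genes. The median log2 fold change was 0.02, with quartiles of -0.16 and 0.24, and members ran from -0.998 to 0.66. The groups did not overlap for 29 of them (59.2%), 16 higher and 13 lower in FR, beside 72.4% of all genes. Summed over the 49 genes, the level was 2025, 2086 and 2084 CPM in WT and 2112, 2148 and 2112 CPM in FR, a mean difference of 2.87%. Each FR sum lay above each WT sum, by little at the nearest pair. By symbol, the sum of the large subunit was 1.79, 1.79 and 1.82 times that of the small subunit in WT and 1.75, 1.74 and 1.70 times in FR. This ratio counts Mrps30, Mrps18a and Mrps36 as small subunit, although their proteins are placed elsewhere. Mrps30 alone went from a mean of 33.4 to 53.3 CPM, so the shift of the ratio partly reflects the naming. Sums by place in the ribosome are not given here.

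The rises of the Mrpl genes were led by Mrpl37, a mitochondria-specific protein that shares the PDCD9 family of the deposited annotation with Mrps30 and no other member. It stood at 55.4, 57.3 and 57.8 CPM in WT and 87.4, 91.6 and 89.4 CPM in FR. The log2 fold change was 0.66 ± 0.04 (edgeR, adjusted p = 2.86e-15), beside 0.67 for Mrps30. The searched promoter of Mrpl37 held AAGATGG, which begins at base 27 after the start and is cut off in the printed part. The printed promoter of Mrps30 held none of the 3 strings. Mrpl38, a protein of the central protuberance on top of the subunit, was at 53.0, 57.0 and 62.4 CPM in WT and 81.8, 88.2 and 82.1 CPM in FR, with a log2 fold change of 0.55 ± 0.05 (edgeR, adjusted p = 8.06e-08). Its libraries were more scattered than those of Mrpl37 in both groups, and still apart. Mrpl1, the protein of the mobile L1 stalk beside the exit site for tRNA, rose from 20.2, 19.6 and 18.2 CPM to 27.8, 27.3 and 25.1 CPM (log2 fold change 0.47 ± 0.07, edgeR adjusted p = 3.12e-07). Mrpl49, a mitochondria-specific protein, was at 58.9, 60.7 and 63.5 CPM in WT and 81.7, 82.0 and 84.0 CPM in FR (log2 fold change 0.44 ± 0.04, edgeR adjusted p = 4.60e-11). Its exons overlap Syvn1 on the opposite strand in the GRCm38 annotation, and Syvn1 was also higher in FR (0.35, edgeR adjusted p = 2.82e-08). Strand is not stated for these libraries, so the reads of such pairs cannot be told apart. In all, 23 members overlap exons of another gene of at least 1 CPM. Among those called are Mrpl48 with Rab6a (117 CPM in WT, 104 in FR, called lower), Mrps18b with Gm16279 (1.79 and 2.88 CPM, called higher) and Mrpl18 with Tcp1 (530 and 589 CPM, called higher), each partner on the opposite strand. Mrpl21 with Ighmbp2 (17.3 and 21.2 CPM) and Mrpl19 with Gcfc2 (20.7 and 24.6 CPM) are further such pairs, with both genes called higher. Opposite-strand partners of called members that were not called themselves include Nr2c2 (with Mrps25) and Eme1 (with Mrpl27). Other called members overlap a partner on the same strand, where strand alone would not separate the reads. These are Mrpl53 with Gm42688 (9.98 and 9.09 CPM), Mrps34 with Nme3 (2.35 and 1.96) and Mrpl3 with Gm38077 (2.91 and 3.46), and none of these partners was called.

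Mrpl24 fell the most of all members. Its bacterial relative is one of the proteins that start assembly of the large subunit, and it lies by the exit of the tunnel through which new chains leave. The level was 39.3, 40.4 and 37.3 CPM in WT and 20.7, 18.9 and 19.1 CPM in FR, a mean that was lower by 49.8% (edgeR, adjusted p = 4.87e-15). Every FR library lay near 20 CPM and every WT library above 37 CPM. The opposite-strand neighbour that overlaps its exons, Rrnad1, went from a mean of 20.1 to 18.8 CPM and was not called (log2 fold change -0.10, edgeR adjusted p = 0.232). The log2 fold change of Mrpl24 stayed between -1.05 and -0.98 under all alternatives tried, so whether it counts as 2-fold depended on the setting.

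Mrpl48, Mrpl52, Mrpl41 and Mrpl51 followed, all 4 of them counted here as mitochondria-specific, although Mrpl48 shares the S10 family of the deposited annotation. Mrpl48, a protein of the central protuberance, was at 36.6, 36.3 and 31.9 CPM in WT and 19.9, 23.7 and 23.0 CPM in FR (log2 fold change -0.65 ± 0.07, edgeR adjusted p = 5.73e-09). Its Pfam partner Mrps10, the small-subunit protein of the S10 family, moved the other way, by 0.28 on the log2 scale (edgeR, adjusted p = 2.49e-06). Mrpl52 was at 30.0, 33.2 and 31.9 CPM in WT and 19.2, 20.3 and 21.9 CPM in FR (log2 fold change -0.63 ± 0.06, edgeR adjusted p = 5.64e-10). Its promoter, printed above, is the one with 2 ETS strings. Mrpl41, which has also been studied as a partner of p53 and Bcl-2, fell from 19.9, 21.8 and 22.0 CPM to 14.7, 14.1 and 14.3 CPM (log2 fold change -0.56 ± 0.07, edgeR adjusted p = 8.63e-08). Its FR libraries lay within 1 CPM of each other. Mrpl51, named here after its values were seen, was at 65.4, 67.5 and 67.8 CPM in WT and 45.3, 44.3 and 48.3 CPM in FR, with a log2 fold change of -0.54 ± 0.04 (edgeR, adjusted p = 4.25e-12).

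Within the large subunit, the members were also grouped by place. The stalk that recruits translation factors holds Mrpl10, Mrpl11, Mrpl12, Mrpl53 and Mrpl54, and 4 of these 5 rose and none fell, in a table where 70.1% of all genes were called and 34.6% rose. Mrpl11 changed by 0.29, Mrpl10 by 0.24 and Mrpl53 by 0.20 on the log2 scale, while Mrpl54 was not called (-0.06, edgeR adjusted p = 0.237). Mrpl12, the factor-binding stalk protein that has also been found with the mitochondrial RNA polymerase, was at 92.4, 96.4 and 93.6 CPM in WT and 95.8, 104.8 and 97.9 CPM in FR. Its groups overlapped, and its log2 fold change of 0.08 ± 0.04 had an adjusted p of 0.0471 in edgeR. That call was lost without any 1 of 5 libraries, with an adjusted p up to 0.441 without FR replicate 2, and by DESeq2 (0.137). Around the exit tunnel (Mrpl17, Mrpl22, Mrpl23, Mrpl24, Mrpl45, Mrpl47), 2 rose and 2 fell. Mrpl45, which holds the ribosome at the inner membrane, changed by 0.35 and Mrpl22, whose promoter is printed above, by 0.35, while Mrpl17 changed by -0.23 and Mrpl24 by -0.998. In the central protuberance, 3 of 7 rose (Mrpl38, Mrpl46 and Mrpl18) and 3 fell (Mrpl48, Mrpl27 and Mrpl58). Among all genes, 34.6% rose and 35.5% fell, so rises and falls side by side are also the pattern of the whole table. The calls of Mrpl18, Mrpl27 and Mrpl58 were among those lost when 1 library was left out.

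Mrpl58, also known as ICT1, is a peptidyl-tRNA hydrolase that frees stalled ribosomes and is built into the large subunit. It was at 38.7, 37.0 and 38.5 CPM in WT and 34.4, 35.8 and 34.9 CPM in FR, with a log2 fold change of -0.12 ± 0.05 (edgeR, adjusted p = 0.0354). The groups did not overlap, but the call was lost without any 1 of 4 libraries (FR replicates 1 and 3, WT replicates 1 and 3), with adjusted p between 0.0643 and 0.0775. Across all members, 11 of the 48 calls were lost when 1 library was left out: those of Mrpl3, Mrpl12, Mrpl18, Mrpl27, Mrpl34, Mrpl57, Mrpl58, Mrps9, Mrps25, Mrps28 and Mrps35. Their adjusted p then lay between 0.0557 and 0.441, and each of the 6 libraries ended at least 1 of these calls.

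Proteins that belong to bacterial families were compared with those found only in mitochondria, by textbook assignment. Of 48 members of bacterial families, 17 rose and 8 fell, 52.1% in all, with a median log2 fold change of 0.07. Of 30 mitochondria-specific members, 13 rose and 10 fell, 76.7% in all, with a median of 0.04. The mitochondria-specific share was close to the 70.1% of all genes, and the bacterial share below it. In the small subunit by symbol, 10 of 11 mitochondria-specific genes were called, against 7 of 18 of bacterial families. The 11 include Mrps30 and Mrps36, both called, and the 18 include Mrps18a, which was not. Their proteins are placed outside the small subunit above, and Mrps36, placed in another complex, is also among the 30 mitochondria-specific members. In the large subunit the counts were 13 of 19 and 18 of 30. No test of the difference between these classes was made.

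Levels between genes were compared as mean CPM per kilobase of the deposited gene length, whose derivation is not stated. The highest level was that of Mrpl42, a mitochondria-specific protein of the large subunit, with 163 CPM per kilobase in WT and 125 in FR. It stood at 103, 114 and 106 CPM in WT, against 81.7, 79.0 and 87.0 CPM in FR, and fell by 0.38 ± 0.04 on the log2 scale (edgeR, adjusted p = 9.68e-09). Mrps21, the bS21 protein of the small subunit, came next with 122 CPM per kilobase in WT and 111 in FR. Its CPM were 47.3, 51.0 and 50.2 in WT and 40.04, 48.9 and 45.6 in FR. These overlap, and the adjusted p was 0.0519 in edgeR. It passed the threshold in 7 alternatives, among them those without FR replicate 2 (adjusted p = 0.00178) or WT replicate 1 (0.0209). Mrpl30 had 83.5 CPM per kilobase in WT and 71.0 in FR (log2 fold change -0.23 ± 0.05, edgeR adjusted p = 7.60e-05), and Mrps15 had 66.2 and 84.3. At the low end were Mrpl1 with 5.43 CPM per kilobase in WT and 7.51 in FR, and Mrpl57, also called mL63, with 6.33 and 5.48. Mrpl57 was at 17.0, 19.5 and 18.1 CPM in WT and 14.4, 16.8 and 16.1 CPM in FR (log2 fold change -0.20 ± 0.08, edgeR adjusted p = 0.0251), a call lost without FR replicate 1 (0.108) or WT replicate 2 (0.109). In the small subunit, Mrps35 had 8.83 CPM per kilobase in WT and 8.09 in FR, and Mrps14 had 9.65 and 9.58. The proteins are present in equal number in a ribosome apart from the stalk, whereas the transcripts spread over more than an order of magnitude per length.

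**Figure D3:**
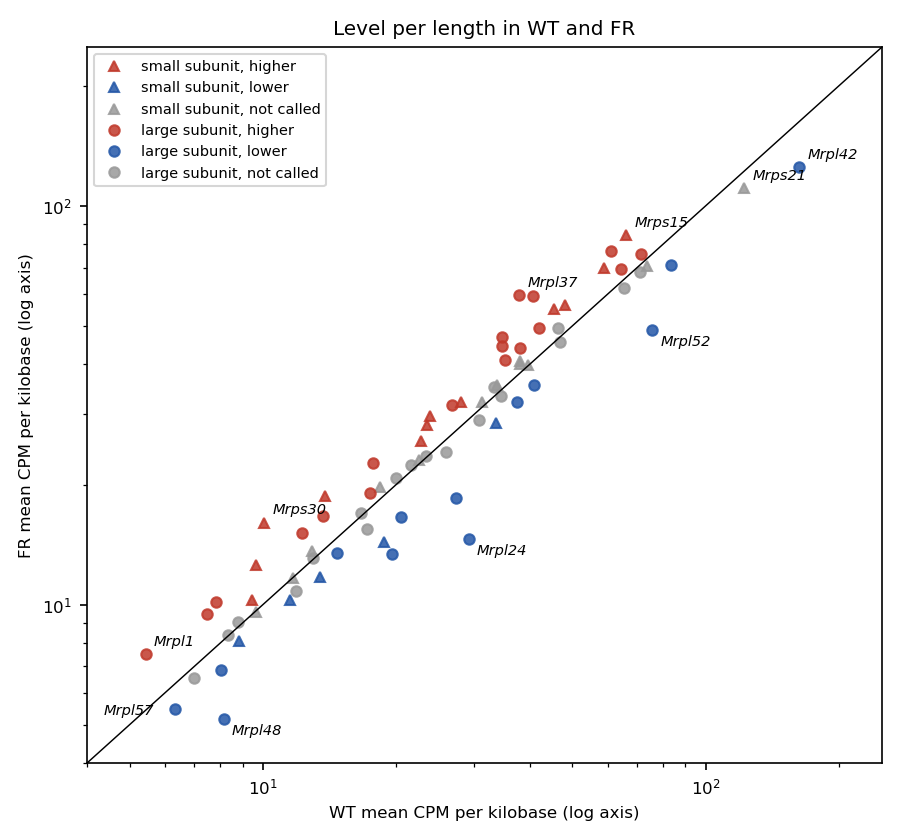
Mean level in FR against WT in CPM per kilobase of deposited gene length, both on log axes, for 29 small-subunit (triangles) and 49 large-subunit (circles) genes by symbol, coloured by call. The line marks equal levels, the members keep close to it from about the level of Mrpl1 (5.43 in WT) to that of Mrpl42 (163 in WT), and Mrpl24 lies farthest below it.

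Near-identical copies affect some members. The table lists Mrpl23-ps1, a pseudogene of the tunnel-exit protein gene Mrpl23, with 734, 705 and 671 expected counts in WT and 537, 725 and 656 in FR. Mrpl23 itself received 140, 164 and 178 in WT and 132, 148 and 121 in FR. The copy thus held 79.1% to 84.4% of the counts of the pair in every library. Mrpl23 had a log2 fold change of 0.00 ± 0.13 (edgeR, adjusted p = 0.993), the nearest to 0 in the large subunit, and was the lowest member in CPM. With the counts of the copy added it was 0.11 (adjusted p = 0.0708), so the value of Mrpl23 is uncertain. Mrpl48-ps held 34.5, 47.9 and 32.2 counts in the WT libraries against 56.5, 90.2 and 48.3 in those of FR, that is 3.34% to 4.87% of its pair in WT and 9.05% to 13.2% in FR. It rose by 1.00 ± 0.23 on the log2 scale (edgeR, adjusted p = 0.000413) while Mrpl48 fell. With the copy's counts added, the fall of Mrpl48 was smaller, at -0.53 (adjusted p = 2.56e-07). In all, 37 members had fractional counts in at least 1 library, as arise where RSEM divides reads that match more than 1 place.

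**Figure D4:**
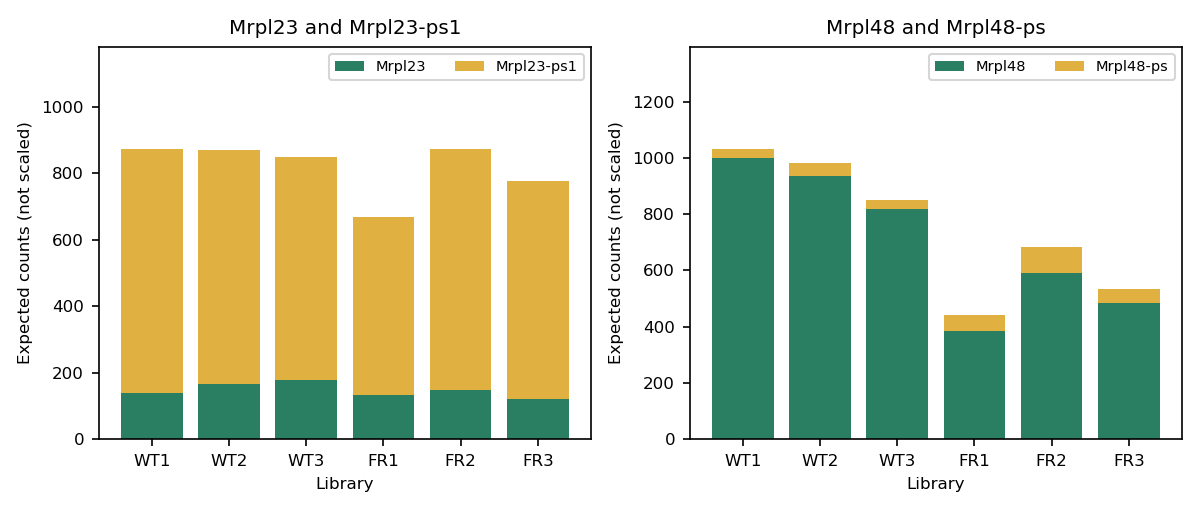
Expected counts, not scaled to depth, of Mrpl23 (left) and Mrpl48 (right) in green and of their named pseudogenes in yellow, stacked, in each library. Mrpl23-ps1 takes most of its pair in all 6 libraries, and Mrpl48-ps a small part that is larger in FR.

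The other parts of mitochondrial translation were described from lists drawn from general knowledge. Of 100 related genes tested, 61 rose and 12 fell, beside 30 and 18 of the 78 members and 34.6% and 35.5% of all genes. The 73 called genes are a share near the 70.1% of all genes. The 5 ribosomal proteins with other symbols summed to 273 ± 2.15 CPM in WT and 309 ± 5.56 CPM in FR (SD, n = 3). Among them Chchd1 and Ptcd3, both of the small subunit, rose by 0.41 ± 0.07 (edgeR, adjusted p = 6.72e-05) and 0.40 ± 0.04 (adjusted p = 1.15e-10) on the log2 scale. Dap3, the GTP-binding protein of the small subunit also known as death-associated protein 3, was at 80.9, 82.0 and 82.6 CPM in WT and 74.1, 75.6 and 75.1 CPM in FR (log2 fold change -0.13 ± 0.04, edgeR adjusted p = 0.00227). Like the Mrps genes, these few proteins went both ways.

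Of 17 translation factors, 10 rose (58.8%) and 3 fell (17.6%), beside 34.6% and 35.5% of all genes, with a median log2 fold change of 0.23. Lrpprc, which keeps mitochondrial messages stable and translatable, had the largest rise, from 155 ± 4.58 to 252 ± 4.59 CPM (0.70 ± 0.03, edgeR adjusted p = 2.12e-18), and Mtrf1, a release factor, the largest fall, from 4.07 ± 0.403 to 2.78 ± 0.354 CPM (-0.56 ± 0.17, edgeR adjusted p = 0.0044). Slirp, the partner of Lrpprc, was called lower, at -0.44 ± 0.06 (edgeR, adjusted p = 4.13e-07). Of 30 assembly factors and rRNA-modifying enzymes, 16 rose and 3 fell, with a median of 0.20. Grsf1, an RNA granule protein, led the rises, from 82.8 ± 3.21 to 136 ± 3.73 CPM (0.71 ± 0.04, edgeR adjusted p = 1.04e-16). Gtpbp10, a GTPase that matures the large subunit, stood at 2.53, 3.38 and 3.78 CPM in WT and 0.312, 0.200 and 0.661 CPM in FR (-3.05 ± 0.32, edgeR adjusted p = 2.20e-09), a larger fold than that of any member. The low FR levels rest on few counts.

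Of 20 mitochondrial tRNA synthetases and amidotransferase subunits, 17 rose (85%) and 1 fell, beside 34.6% and 35.5% of all genes, with a median of 0.28. Pars2, for proline, rose from 7.65 ± 0.591 to 14.5 ± 0.558 CPM (0.92 ± 0.10, edgeR adjusted p = 1.16e-09) and Rars2, for arginine, fell from 28.6 ± 0.404 to 15.2 ± 1.71 CPM (-0.90 ± 0.07, edgeR adjusted p = 3.75e-12). Of 15 genes for mitochondrial transcription and RNA processing, 7 rose and 2 fell. Both ends of that list were subunits of mitochondrial RNase P: Prorp, its nuclease, rose by 0.52 ± 0.09 (edgeR, adjusted p = 5.76e-06) and Hsd17b10 fell from 66.8 ± 0.995 to 36.4 ± 0.96 CPM (-0.88 ± 0.04, edgeR adjusted p = 8.38e-17). The ribosomal RNAs of the mitochondrial genome differed in direction, with mt-Rnr1 (small subunit) higher by 0.56 ± 0.03 (edgeR, adjusted p = 1.11e-14) and mt-Rnr2 (large subunit) at -0.43 ± 0.03 (edgeR, adjusted p = 1.59e-11). These libraries were selected for poly(A), so levels of ribosomal RNA depend on how much of it passed that step.

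Of 13 nuclear regulators of mitochondrial genes, 8 rose and 2 fell, 76.9% called beside 70.1% of all genes. Ppargc1a, the coactivator PGC-1alpha that drives mitochondrial biogenesis, was at 6.34, 6.56 and 6.05 CPM in WT and 26.5, 24.9 and 28.2 CPM in FR (2.07 ± 0.08, edgeR adjusted p = 8.70e-19). Its relative Ppargc1b had the largest fall, -0.18 ± 0.07 (edgeR, adjusted p = 0.0322), lost without FR replicate 1 (0.0538), FR replicate 2 (0.0521) or WT replicate 3 (0.108). The factors whose strings were counted in the promoters had changes of both signs. Nrf1 was at -0.04 ± 0.05 (edgeR, adjusted p = 0.441) and Yy1 was called lower at -0.10 ± 0.04 (edgeR, adjusted p = 0.0116). Of the GABP subunits, Gabpb2 rose by 0.25 ± 0.03 (edgeR, adjusted p = 4.61e-08), while Gabpa, which binds the DNA, was at -0.08 ± 0.04 (adjusted p = 0.0656) and Gabpb1 at -0.01 ± 0.05 (adjusted p = 0.923). Gabpa was called lower in 5 alternatives, among them those without FR replicate 2 (adjusted p = 0.0295), WT replicate 1 (0.0447) or WT replicate 2 (0.0119). For comparison, 51 of 81 tested cytosolic ribosomal protein genes were higher and 16 lower, with a median of 0.17, and 31 of 78 nuclear genes of the respiratory chain and ATP synthase were higher and 23 lower, with a median of 0.03. The spread of the mitochondrial ribosomal genes, 30 up and 18 down of 78, lay beside that of the respiratory chain genes in these counts, and no test between lists was made.

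**Figure D5:**
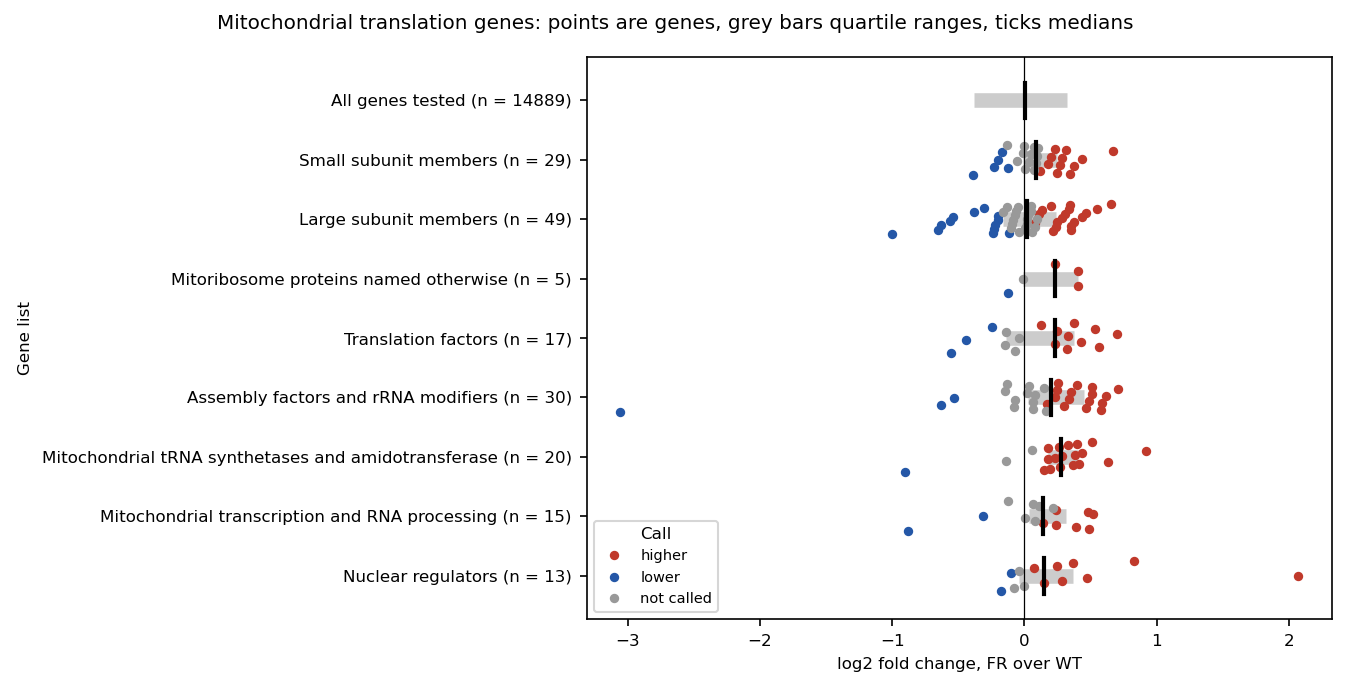
Log2 fold change of FR over WT for each gene (points, coloured by call) of the 2 subunits and 6 related lists, with quartile range (grey bar) and median (black tick), beside the quartile range of all 14889 genes tested. The medians of the related lists lie between 0.14 and 0.28, those of the subunits at 0.08 and 0.02, and Gtpbp10 (-3.05) and Ppargc1a (2.07) stand outside the other points.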

How the data were processed

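RNA-seq libraries of MC3T3-E1 cells (3 WT, 3 FR) were poly(A)-selected per the labels' protocols. Per the submitters' processing notes, reads passed through fastp, HISAT and RSEM on GRCm39, with versions not given in the sources used here. The authors deposited expected counts per gene, not scaled to depth, of which 85.9% of values are whole, with group means (2 columns, not used) and a gene length. Expected counts were rounded, filtered with filterByExpr of edgeR 4.0.16 (R 4.3.3), which left 14889 genes, scaled by TMM and tested by the robust quasi-likelihood F-test with adjustment over all of these. CPM use TMM-scaled totals. Standard errors come from the fit.

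Members follow from their symbols. The members and lists were chosen with earlier results of these data known. Named are, per subunit, the 4 largest called rises and falls, the 2 highest and lowest per kilobase and the one nearest 0, with Mrps18a, Mrps18b, Mrps18c, Mrps36, Mrps30, Mrps12, Mrpl12 and Mrpl58, and from each list the largest called rise and fall. Further genes are named where counts are broken down, and were chosen after their values were seen. Of the listed genes, 2 were not found under the symbol used (Mrp63, Mtrfr). Structural classes are from general knowledge.

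Promoters are from the RefSeq table (69 of 78 members matched, first start of a gene). Exon overlaps are from GENCODE on GRCm38, among genes of at least 1 CPM. Steps were tested on simulated data. Alternatives were other scaling, filters, a non-robust fit, the replicate block, leaving out each library or the 10 most abundant genes, DESeq2 1.42.0, limma-voom (limma 3.58.1) and glmTreat. Adding pseudogene counts to the parent was chosen after seeing the data. Figures used matplotlib 3.10.9 in Python 3.11.15.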

Additional observations from a re-analysis of the deposited data

How the results depend on the processing

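No called member reversed its direction, while 7 members that were not called had estimates on both sides of 0 (Mrpl15, Mrpl23, Mrpl40, Mrpl50, Mrps5, Mrps11 and Mrps24). Over all 78 members and 17 alternatives, 1237 of 1326 comparisons kept their side of the threshold, 71 lost and 18 gained a call. Testing for more than 1.2-fold (glmTreat) asks a stricter question and left 14 large-subunit calls (8 higher, 6 lower), 3 in the small subunit (3 higher, 0 lower) and 39 among the related genes (32 higher, 7 lower). The main fit gave 31, 17 and 73. The share of all genes called under each alternative is not given here, so these counts can be set beside the main fit only. Without glmTreat, 11 members lost a call somewhere and 8 gained one. With 1 library left out, large-subunit calls ranged from 26 to 30 (15 to 18 higher, 10 to 15 lower), small-subunit calls from 15 to 19 (10 to 14 higher, 4 to 7 lower) and related calls from 65 to 70 (53 to 56 higher, 11 to 14 lower). The median log2 fold change then ranged from 0.0526 to 0.115 in the small and from 0.00012 to 0.0267 in the large subunit; without a filter the small-subunit median was 0.0604. Scaling by library size alone, limma-voom, median-of-ratios factors and no filter each gave 1 member at 2-fold or more (Mrpl24), against 0 as reported, and leaving out 1 library gave 0 to 1. The replicate numbers did not pair the libraries (correlations of deviations -0.028 to -0.0039); the replicate block gave 31 large-subunit and 18 small-subunit calls, and 72 related calls. Depth left few counts for the lowest genes, such as Gtpbp10 in FR. Precision also differed among the members. Mrpl55, at a mean of 12.3 CPM in WT, was not called at a log2 fold change of -0.16 ± 0.09. Mrpl12, at 94.1 CPM in WT, was called at 0.08 ± 0.04.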
